A study of Mus musculus with 6 samples.

Results

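The 10 genes examined here encode subunits of the potassium channels that repolarize heart muscle cells: Kcnq1, Kcne1, Kcnh2, Kcnd2, Kcnd3, Kcnip2, Kcna5, Kcnj2, Kcnj12 and Kcnj3. They were taken by gene symbol from a table of 24062 symbols; all 10 symbols were found and all 10 passed the filter on low counts, under which 13629 genes were tested. Expression was measured by RNA-seq in both ventricles of male mice of the C57/Bl6N strain at 1 day after birth. There were 3 control libraries from mice without Cre recombinase (CreNEG) and 3 libraries from mice with Cre and a cardiac-specific knockout of Med12 (Med12cKO, CrePOS). Med12 is a subunit of the kinase module of Mediator, a large coactivator complex that bridges DNA-bound transcription factors and RNA polymerase II. The labels name no promoter that drives Cre. Because Cre was present in the Med12cKO group alone, what Cre does by itself and what loss of Med12 does cannot be told apart. The labels do not say whether each library came from 1 animal, and p-values measure the spread between these libraries.

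Repolarization ends each heartbeat's action potential as potassium leaves the cell. Several currents share this work. The transient outward current Ito, carried by Kv4 channels, shapes early repolarization. The delayed rectifiers IKs, IKr and IKur also repolarize the cell, and the inward rectifier IK1 completes repolarization and holds the resting potential. The adult mouse ventricle repolarizes mainly through Ito and other Kv currents, whereas IKr and IKs are held to be more prominent before and around birth than later. Pore-forming subunits carry the ions, and auxiliary subunits such as Kcne1 and Kcnip2 alter how the channel opens or how much of it reaches the membrane.

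Levels are given as CPM, the counts of a gene relative to the TMM-scaled library size, and group values are means ± SD (n = 3 libraries each). Library totals ran from 8453346 to 10911698 counts, and the lowest count of any of the 10 genes in any library was 32 (Kcnd2). Med12 itself, the check of the labels, stood at 103, 175 and 113 CPM in the control libraries and at 61.5, 84.8 and 41.2 CPM in the Med12cKO libraries. Every library labelled Med12cKO lay below every control (47.9% of the control mean; adjusted p = 0.765 in edgeR and 0.024 in DESeq2). In control replicate 3 and Med12cKO replicate 1 the 12 T-cell and thymus markers averaged 69.0 and 69.7 CPM, against at most 0.459 CPM in the other libraries. Each group holds 1 such library.

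None of the 10 genes passed the test over all genes, edgeR's quasi-likelihood test with Benjamini-Hochberg adjustment, where 3 of 13629 genes (0.022%) did, 0.0147% lower and 0.00734% higher. Kcne1, Kcnip2 and Kcnd2 stood lower in Med12cKO, at 60.2%, 60.0% and 61.6% of the control mean, and in each of them every Med12cKO library lay below every control. Groups did not overlap in 8.23% of all tested genes, with Med12cKO entirely below control in 3.64% and entirely above it in 4.59%. These 3 genes also had an unadjusted edgeR p under 0.05 with a lower value. Of all genes tested, 3.78% had such a p, 1.61% with a lower and 2.16% with a higher value. DESeq2 called 2 of the 10 lower at an adjusted p under 0.05, Kcne1 and Kcnip2. It called 0.489% of the 12475 genes to which it gave an adjusted p, 0.257% as lower. Limma-voom called 0 of the 10. Of the 10 log2 fold changes 9 were negative, with a median of −0.32, beside 6519 negative of 13629 and a median of 0.0081 over all genes tested.

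**Figure D1:**
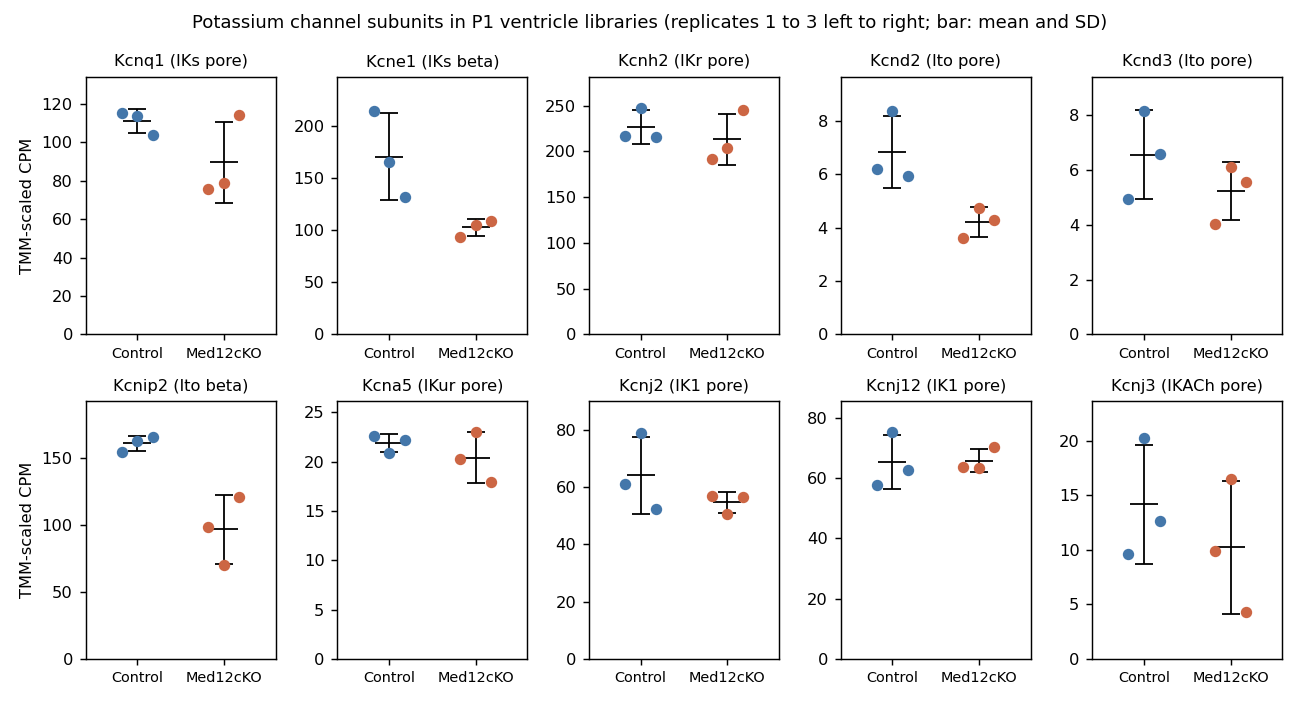
TMM-scaled CPM (vertical axis, starting at 0, a separate scale for each gene) of the 10 subunit genes in each control and Med12cKO library; points are libraries, the long tick is the group mean and the error bar its SD (n = 3). Kcne1, Kcnip2 and Kcnd2 are the panels in which all 3 Med12cKO points lie below all 3 control points.

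Per kilobase of exon the channel genes spanned a wide range of levels. In control ventricles Kcne1 stood at 53.1 ± 12.9 RPKM (TMM-scaled CPM per kilobase of exon), Kcnh2 at 46.8 ± 3.78 RPKM and Kcnip2 at 46.2 ± 1.67 RPKM. The ranges of these 3 overlapped, so their order is within the spread of the libraries. Kcnq1 at 27.1 ± 1.52 RPKM and Kcnj12 at 23.8 ± 3.28 RPKM came next and overlapped each other but not the first 3. Kcnj2 followed at 11.8 ± 2.475 RPKM and Kcna5 at 7.65 ± 0.308 RPKM, each separated from its neighbours. Kcnj3 at 2.72 ± 1.05 RPKM, Kcnd2 at 1.33 ± 0.26 RPKM and Kcnd3 at 0.685 ± 0.169 RPKM were lowest, with ranges that did not overlap. The Kv4 pore genes were thus the least abundant of the 10 at this age, and the gene of their auxiliary subunit among the most abundant. In Med12cKO Kcnh2 was highest, at 44.05 ± 5.75 RPKM, and its range (39.6 to 50.5 RPKM) lay above that of Kcne1 (29.2 to 34.05 RPKM).

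The slow delayed rectifier IKs is formed by the pore protein of Kcnq1 and the small single-pass protein of Kcne1, which slows its opening. Kcne1 (chromosome 16, 92345982 to 92359468, minus strand) measured 215, 166 and 132 CPM in control replicates 1 to 3 and 94.0, 105 and 109 CPM in Med12cKO replicates 1 to 3. The control libraries were widely spread and the Med12cKO libraries close together, and the lowest control lay above the highest Med12cKO library. Its log2 fold change was −0.73 (SE 0.17, 95% interval −1.12 to −0.34), with adjusted p = 0.435 in edgeR and 0.023 in DESeq2. Leaving out control replicate 1, the highest library, gave −0.53, and leaving out control replicate 3 gave −0.89. Without the 2 libraries with T-cell transcripts it was −0.83.

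Kcnq1 (chromosome 7, 143106362 to 143427042, plus strand) measured 115, 114 and 104 CPM in control and 76.0, 78.8 and 114 CPM in Med12cKO. The groups overlapped through Med12cKO replicate 3 alone, which stood at the control level. The log2 fold change was −0.31 (SE 0.16, 95% interval −0.67 to 0.06; unadjusted p = 0.0891 in edgeR's quasi-likelihood test). Without Med12cKO replicate 3 it was −0.52, with adjusted p = 0.301 in edgeR. It was −0.215 without Med12cKO replicate 1, −0.225 without Med12cKO replicate 2 and −0.185 within the 4 libraries whose sample description starts with the letter I. Of the exon bases of Kcnq1, 2.96% are also annotated to Kcnq1ot1 on the opposite strand, and the sources used here do not state whether counting used strand.

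The ratio of Kcne1 to Kcnq1 counts per exon length, which does not depend on library scaling, was 2.37, 1.85 and 1.62 in control and 1.58, 1.70 and 1.22 in Med12cKO. The groups overlapped, with Med12cKO replicate 2 above control replicate 3. The mean log2 ratio differed by −0.37 (two-sided exact permutation p = 0.20, where 0.10 is the smallest value that 3 against 3 libraries allow). It differed by −0.22 without control replicate 1 and by −0.23 without Med12cKO replicate 3. Akap9, which encodes the anchoring protein that ties kinase and phosphatase to the IKs channel, stood at 67.2 ± 1.73 CPM in control libraries and 63.1 ± 5.16 CPM in Med12cKO libraries, with overlapping groups.

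Kcnh2 encodes the pore subunit of the rapid delayed rectifier IKr (chromosome 5, 24319589 to 24351604, minus strand). It measured 217, 248 and 215.5 CPM in control and 192, 203.5 and 245 CPM in Med12cKO. Med12cKO replicates 1 and 2 lay below the controls and replicate 3 within their range. The fitted log2 difference was −0.09 (SE 0.13), and its 95% interval of −0.39 to 0.21 leaves room for a modest difference in either direction. It lay closest to 0 without control replicate 2 (−0.017) and without Med12cKO replicate 1 (−0.029), and farthest from 0 without Med12cKO replicate 3 (−0.20). Kcne2, a single-pass subunit that can join this channel, was at most 0.591 CPM in any library and failed the low-count filter.

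The transient outward current is carried by Kv4 pore proteins, encoded by Kcnd2 and Kcnd3, with the calcium-binding protein KChIP2, encoded by Kcnip2, bound to them. KChIP2 promotes delivery of the Kv4 channel to the cell surface. The 250 bases before the RefSeq start of these 3 genes are shown because 2 of them, Kcnip2 and Kcnd2, stood lower in every Med12cKO library while the groups of Kcnd3 overlapped. The sequences are from RefSeq on GRCm38.p6 and run 5′ to 3′ on the gene's strand, with matches to CACCC, the core of binding sites of Krüppel-like factors, in capitals on either strand. Their positions are chr19:45816064-45816313 on the minus strand for Kcnip2, chr6:21215096-21215345 on the plus strand for Kcnd2 and chr3:105451640-105451889 on the plus strand for Kcnd3.
Kcnip2: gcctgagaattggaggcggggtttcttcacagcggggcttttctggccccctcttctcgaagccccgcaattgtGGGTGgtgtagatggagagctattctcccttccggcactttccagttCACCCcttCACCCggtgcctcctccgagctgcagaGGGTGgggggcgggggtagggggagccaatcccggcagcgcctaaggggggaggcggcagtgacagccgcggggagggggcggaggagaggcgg
Kcnd2: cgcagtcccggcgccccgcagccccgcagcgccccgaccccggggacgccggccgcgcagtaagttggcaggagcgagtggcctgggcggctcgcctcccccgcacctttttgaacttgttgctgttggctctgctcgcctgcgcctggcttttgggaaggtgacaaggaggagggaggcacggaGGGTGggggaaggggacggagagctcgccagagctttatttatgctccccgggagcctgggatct
Kcnd3: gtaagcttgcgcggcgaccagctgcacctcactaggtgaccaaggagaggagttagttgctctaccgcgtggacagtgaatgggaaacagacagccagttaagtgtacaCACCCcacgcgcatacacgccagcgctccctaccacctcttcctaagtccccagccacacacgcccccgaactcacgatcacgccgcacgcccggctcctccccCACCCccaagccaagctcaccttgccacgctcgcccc
Kcnip2 held 4 matches, Kcnd3 held 2 and Kcnd2 held 1. The motif occurred in 7 of the 8 member promoters in the RefSeq table and in 52% of all 32851 promoters of the same length, and a match is a description of letters only. For Kcnh2 and Kcnj12 the promoter lies inside the gene span given here rather than before its 5′ end. The sequences of Kcnd2 and Kcnd3 end at 21215345 and 105451889, short of the gene starts given here, 21215503 and 105452330. For Kcna5 the promoter likewise does not adjoin the gene span. The GATA factor motif AGATAA was in none of the 8 and in 9.99% of all promoters. The T-box motif TCACACC was likewise in none of the 8 and in 3.33% of all. The Iroquois motif ACATGT, in 4.58% of all promoters, and the TATA box as TATAAA, in 12.4%, had no match in the 8 either. Matches to CACGTG, an E-box bound by Hey factors, occurred in 1 of the 8, Kcnj2, and in 6.02% of all. All motifs were searched on both strands, and the T-box motif overlaps the Krüppel-like motif when a further C follows it. Kcnq1 and Kcne1 were not in the promoter table.

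Kcnip2 (chromosome 19, 45791839 to 45816061, minus strand) measured 154, 163 and 165 CPM in control and 98.6, 69.8 and 121 CPM in Med12cKO. The controls lay within a narrow band and the Med12cKO libraries were spread below it, with replicate 2 lowest. Its log2 fold change was −0.74 (SE 0.18, 95% interval −1.15 to −0.33), with adjusted p = 0.473 in edgeR and 0.0358 in DESeq2. Leaving out Med12cKO replicate 2 gave −0.55 and leaving out replicate 3 gave −0.94. Within the libraries of letter I it was −0.57, and with that letter as a block −0.76.

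Kcnd2 (chromosome 6, 21215503 to 21729805, plus strand) measured 6.20, 8.37 and 5.92 CPM in control and 3.60, 4.73 and 4.30 CPM in Med12cKO, from 54, 88, 62, 32, 48 and 40 counts. All Med12cKO libraries lay below all controls at these low counts. The fitted log2 difference was −0.70 (SE 0.24, 95% interval −1.25 to −0.15; adjusted p = 0.977 in edgeR). Without control replicate 2, the highest library, it was −0.52 with an unadjusted p of 0.101 in edgeR, and without the libraries with T-cell transcripts −0.70 with an unadjusted p of 0.0536. Kcnd3 (chromosome 3, 105452330 to 105674002, plus strand) measured 4.94, 8.18 and 6.59 CPM in control and 4.05, 6.11 and 5.59 CPM in Med12cKO. Its groups overlapped, with a log2 fold change of −0.32 (SE 0.27, 95% interval −0.93 to 0.28). That value was −0.13 without control replicate 2, −0.18 without Med12cKO replicate 1 and without the libraries with T-cell transcripts, −0.49 without control replicate 1 and −0.60 within the libraries of letter I. Of its exon bases 1.72% are shared with Kcnd3os on the opposite strand.

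Within a library the ratio of Kcnd3 to Kcnd2 per exon length was 0.428, 0.525 and 0.598 in control and 0.605, 0.694 and 0.699 in Med12cKO. Each Med12cKO ratio lay above each control ratio, although Med12cKO replicate 1 and control replicate 3 were nearly equal. The mean log2 ratio differed by 0.375 (two-sided exact permutation p = 0.10, the smallest possible), by 0.245 without control replicate 1 and by 0.21 within the libraries of letter I. The ratio of Kcnip2 to the sum of both pore genes was 25.8, 18.9 and 25.9 in control and 25.3, 12.9 and 24.6 in Med12cKO. Those groups overlapped, and Med12cKO replicate 2 was low (difference of mean log2 ratios −0.22, two-sided exact permutation p = 0.50). The low value of replicate 2 set the sign: without that library the difference was 0.10.

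Dpp6, a membrane protein that speeds Kv4 gating, stood at 1.05 ± 0.991 CPM in controls and 2.28 ± 1.07 CPM in Med12cKO libraries, with overlapping groups. Kcna4, the Kv1 pore gene of the slowly recovering part of Ito, measured 10.6, 9.89 and 7.54 CPM in control and 14.6, 12.9 and 10.7 CPM in Med12cKO. Every Med12cKO library of Kcna4 lay above every control, in the direction opposite to Kcnd2, but it did not pass edgeR (log2 fold change 0.45, SE 0.21, 95% interval −0.01 to 0.92; unadjusted p = 0.056).

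**Figure D2:**
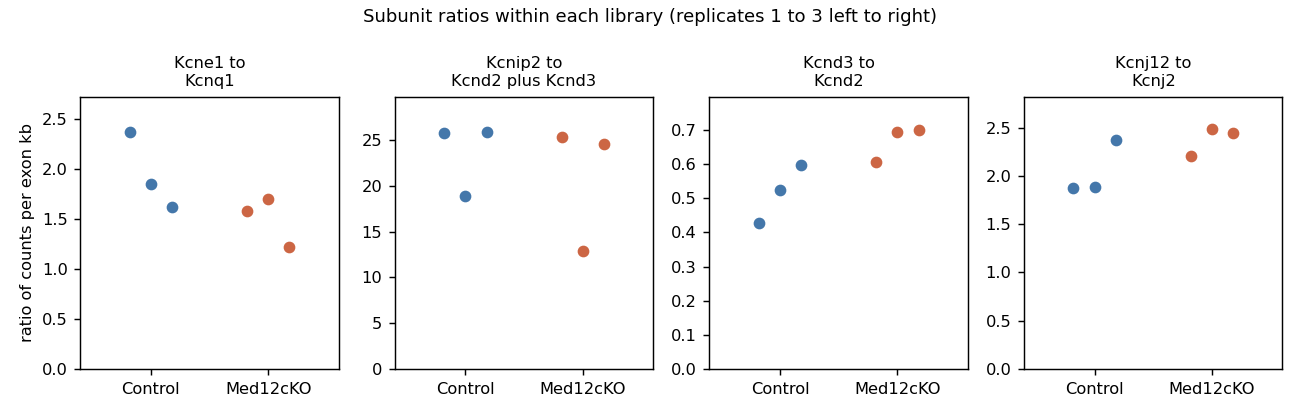
Ratios of counts per kilobase of exon between subunit genes of the same current (vertical axes, starting at 0) in each control and Med12cKO library; each point is a library. The Kcnd3 to Kcnd2 ratio is the only one of the 4 in which the groups do not overlap, with 0.598 the highest control value and 0.605 the lowest Med12cKO value.

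Kcna5 encodes Kv1.5, the pore subunit of the ultrarapid delayed rectifier IKur, and is strongest in the atria in many mammals (chromosome 6, 126532551 to 126535412, minus strand). It measured 22.6, 20.9 and 22.2 CPM in control and 20.3, 23.0 and 17.9 CPM in Med12cKO. The Med12cKO libraries lay on both sides of the control band. Its log2 fold change was −0.10 (SE 0.15, 95% interval −0.44 to 0.24), −0.20 without Med12cKO replicate 2 and −0.018 without Med12cKO replicate 3.

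The inward rectifier IK1 is built from Kir2 subunits, encoded by Kcnj2 (chromosome 11, 111066164 to 111076821, plus strand) and Kcnj12 (chromosome 11, 61022564 to 61071131, plus strand). Kcnj2 measured 61.1, 78.9 and 52.5 CPM in control and 57.1, 50.5 and 56.7 CPM in Med12cKO. The groups overlapped and control replicate 2 was the highest library (log2 fold change −0.23, SE 0.16, 95% interval −0.585 to 0.13). Without control replicate 2 the value was −0.051, without control replicate 3 it was −0.36, and without the libraries with T-cell transcripts −0.39. Kcnj12 measured 57.9, 75.4 and 62.9 CPM in control and 63.8, 63.5 and 70.2 CPM in Med12cKO, so that all Med12cKO libraries fell within the control range. Its log2 fold change was 0.01 (SE 0.13, 95% interval −0.28 to 0.30), and the sign turned with the library left out. The Kcnj12 to Kcnj2 ratio was 1.88, 1.89 and 2.37 in control and 2.21, 2.49 and 2.45 in Med12cKO, with overlapping groups (difference of mean log2 ratios 0.23, two-sided exact permutation p = 0.20). That difference was 0.14 within the libraries of letter I and 0.39 without those with T-cell transcripts.

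Kcnj3 encodes Kir3.1, which with Kir3.4, encoded by Kcnj5, forms the acetylcholine-activated channel of atria and nodal tissue (chromosome 2, 55435970 to 55598145, plus strand). It measured 9.65, 20.25 and 12.6 CPM in control and 9.90, 16.45 and 4.30 CPM in Med12cKO. Kcnj3 was the most variable of the 10 genes, with coefficients of variation of 38.6% in control and 59.5% in Med12cKO. Control replicate 2 was highest and Med12cKO replicate 3 lowest, and the groups overlapped. The fitted difference of −0.47 on the log2 scale (SE 0.49) had a 95% interval of −1.62 to 0.68. It was −0.11 without Med12cKO replicate 3, −0.12 without control replicate 2, −1.0 without Med12cKO replicate 2 and −1.2 within the libraries of letter I. Of its exon bases 31.1% are shared with a lincRNA on the opposite strand. How many of its counts could come from that RNA is not known. Kcnj5 was far more abundant per exon length, at 52.4 RPKM in control and 47.0 RPKM in Med12cKO, and its groups overlapped (log2 fold change −0.16, SE 0.18).

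**Figure D3:**
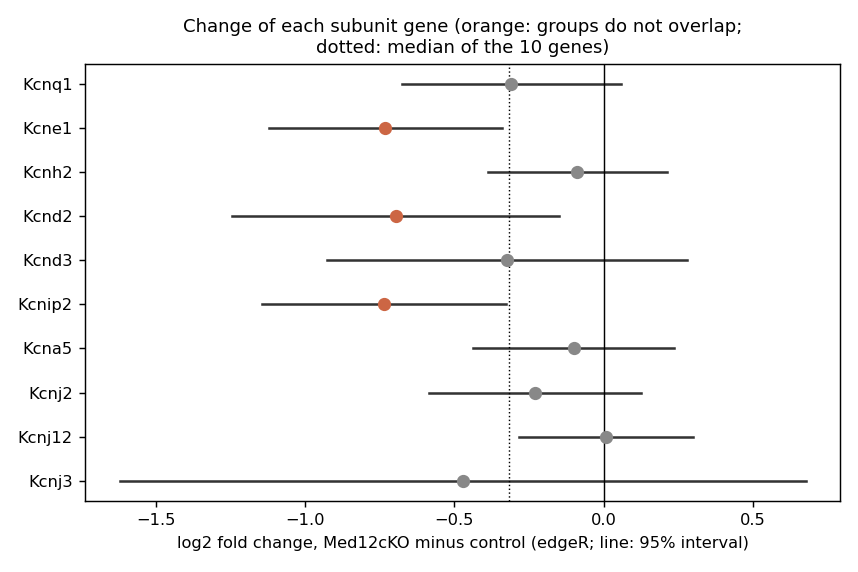
Log2 fold change of each subunit gene, Med12cKO minus control (horizontal axis), from edgeR; horizontal lines are 95% intervals, the solid vertical line marks 0 and the dotted line the median of −0.32. The intervals of Kcne1, Kcnip2 and Kcnd2 lie below 0 before adjustment over all genes, and that of Kcnj3 is the widest.

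Among 61 other potassium channel genes, 39 passed the low-count filter and 0 passed edgeR over all genes, with 3 at an unadjusted p under 0.05, all lower. DESeq2 called 0 of the 39. Of the 39, 22 had a positive and 17 a negative log2 fold change, with a median of 0.02. The 3 were Kcnn1, a small-conductance calcium-activated channel, and Abcc8 and Kcnj8, a sulfonylurea receptor and a pore subunit of ATP-sensitive channels. Kcnn1 measured 20.8, 19.1 and 14.9 CPM in control and 8.44, 8.37 and 12.35 CPM in Med12cKO (log2 fold change −0.91, SE 0.22; adjusted p = 0.443 in edgeR and 0.113 in DESeq2). The log2 difference was −0.47 (SE 0.17) for Abcc8 and −0.31 (SE 0.14) for Kcnj8. In all 3 genes the groups did not overlap, and in 2 others of the 39 every Med12cKO library lay above every control. Of all tested genes, 1.61% had an unadjusted edgeR p under 0.05 with a lower value. Med12cKO lay entirely below control in 3.64% of all tested genes and entirely above it in 4.59%. Kcnn4, another calcium-activated channel, was high in the libraries with T-cell transcripts, at 13.65 CPM in control replicate 3 and 12.6 CPM in Med12cKO replicate 1 against at most 1.49 CPM elsewhere. It is named here after its values were seen.

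Among 29 measured regulators and scaffolds of these channels 0 passed edgeR over all genes. In edgeR 4 had an unadjusted p under 0.05, all lower, beside 1.61% of all tested genes with such a p and a lower value. DESeq2 called 1, Hey2, beside 0.257% called as lower of all genes to which it gave an adjusted p. Hey2 encodes a Notch-induced transcriptional repressor found in the ventricular compact layer. It measured 141, 153.5 and 117 CPM in control and 60.2, 61.0 and 78.8 CPM in Med12cKO (log2 fold change −1.04, SE 0.15, adjusted p = 0.111 in edgeR and 8.52e-07 in DESeq2). For the T-box factor Tbx5 the log2 difference was −0.37 (SE 0.12), and for the LIM protein gene Fhl2 it was −0.36 (SE 0.16). In Hey2, Tbx5 and Fhl2 every Med12cKO library lay below every control, as in 3.64% of all tested genes. Irx5, a homeobox factor known to repress Kcnd2 across the ventricular wall, differed by 0.46 on the log2 scale (SE 0.22). Klf15, a Krüppel-like factor known to act on Kcnip2, differed by −0.11 (SE 0.16). The groups of both genes overlapped, and both were named after their values were seen.

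The summed level of 10 cardiomyocyte markers ran from 39470 to 53540 CPM in control and from 33360 to 41420 CPM in Med12cKO, 9 of the 10 had a negative log2 fold change, and none was at 0. The 6 ventricular markers were all detected and summed to 10700 to 13530 CPM in control and 8219 to 12380 CPM in Med12cKO. Of these 6, 5 had a negative log2 fold change, and the median was −0.28. In 2 of them, Hey2 (−1.04) and Lbh (−0.66), every Med12cKO library lay below every control, as in 3.64% of all tested genes. The part of these differences in the channel values was not tested. In these bulk libraries fewer cells of a type and less RNA per cell cannot be told apart. Relative to the geometric mean of those 10 markers, which itself differed by −0.30 on the log2 scale, Kcne1 differed by −0.405, Kcnip2 by −0.47 and Kcnd2 by −0.39. In all 3 the groups still did not overlap (two-sided exact permutation p = 0.10 each, the smallest possible). On that scale Kcnq1 differed by −0.03, and Kcnj12 by 0.32 with every Med12cKO library above every control (exact permutation p = 0.10). Because the reference was lower in Med12cKO, every gene's difference of mean log2 CPM is raised by the same amount on that scale. The edgeR log2 fold changes given above are fitted values, so their distance from these differences is not the same for every gene. The share of all tested genes without overlap on that scale was not tested, so these separations have no background. Among the 10 reference genes Myh7, at −1.24, and Ryr2, at −0.78, had the lowest log2 differences, whereas the median of the list was −0.17. Without both, the reference differed by −0.13. Myh7 and Ryr2 were picked after their values were seen, and leaving them out lowers every gene's difference by the same amount. Against this reference Kcne1 differed by −0.58, Kcnip2 by −0.64 and Kcnd2 by −0.56, without overlap, which is not a separate test. Kcnq1 then differed by −0.20, and the groups of Kcnj12 overlapped (0.15, two-sided exact permutation p = 0.60).

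The 11 atrial markers summed to between 2457 and 3145 CPM in control and between 2015 and 2188 CPM in Med12cKO, with 9 of 11 negative and none at 0. Their median log2 difference was −0.39, and the members differed. Of the 11, 6 had an unadjusted edgeR p under 0.05, all lower, and 0 passed edgeR over all genes. In 5 every Med12cKO library lay below every control. Of all tested genes, 1.61% had an unadjusted edgeR p under 0.05 with a lower value, and 3.64% had Med12cKO entirely below control. The atrial light chain Myl7, with the lowest log2 difference of the list, stood at 1095 ± 175 CPM in controls and 511 ± 89.2 CPM in Med12cKO libraries. The other atrial light chain, Myl4, stood at 849 ± 109 CPM in controls and 951 ± 114 CPM in Med12cKO libraries, with overlapping groups. The part of atrial tissue in the values of Kcna5, Kcnj3 and Kcne1 was not tested. Conduction system markers (9 genes) summed to 215 to 276 CPM in control and 202 to 280 CPM in Med12cKO. Smooth muscle markers (5 genes) summed to 648 to 1209 CPM in control and 1218 to 1941 CPM in Med12cKO. The largest part came from Acta2 (486 ± 279 and 967 ± 240 CPM), whose groups overlapped. Of these 5 genes 4 had a positive and 1 a negative log2 difference, and in 1 every Med12cKO library lay above every control. Of 11 skeletal muscle markers 9 were tested, 8 of them with a positive log2 difference, and the median was 1.51. The list summed to 2163 to 2827 CPM in control and 2119 to 3317 CPM in Med12cKO, most of it from Ckm (2421 ± 330.4 and 2172 ± 659 CPM), the 1 gene with a negative difference. Casq1 stood at 46.4 ± 17.3 CPM in controls and 221 ± 28.2 CPM in Med12cKO libraries, and Acta1 at 48.8 ± 8.43 and 142.5 ± 78.25 CPM. Both were without overlap (adjusted p = 0.0676 and 0.709 in edgeR). Med12cKO lay entirely above control in 3 of the 9 and in 4.59% of all tested genes. Mylpf, Myh8 and Tnnt3 were highest in Med12cKO replicate 1, Mylpf at 43.3 CPM there and at most 7.29 CPM in any other library. Whether any of these cells or programmes bears on the channel values was not tested.

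**Figure D4:**
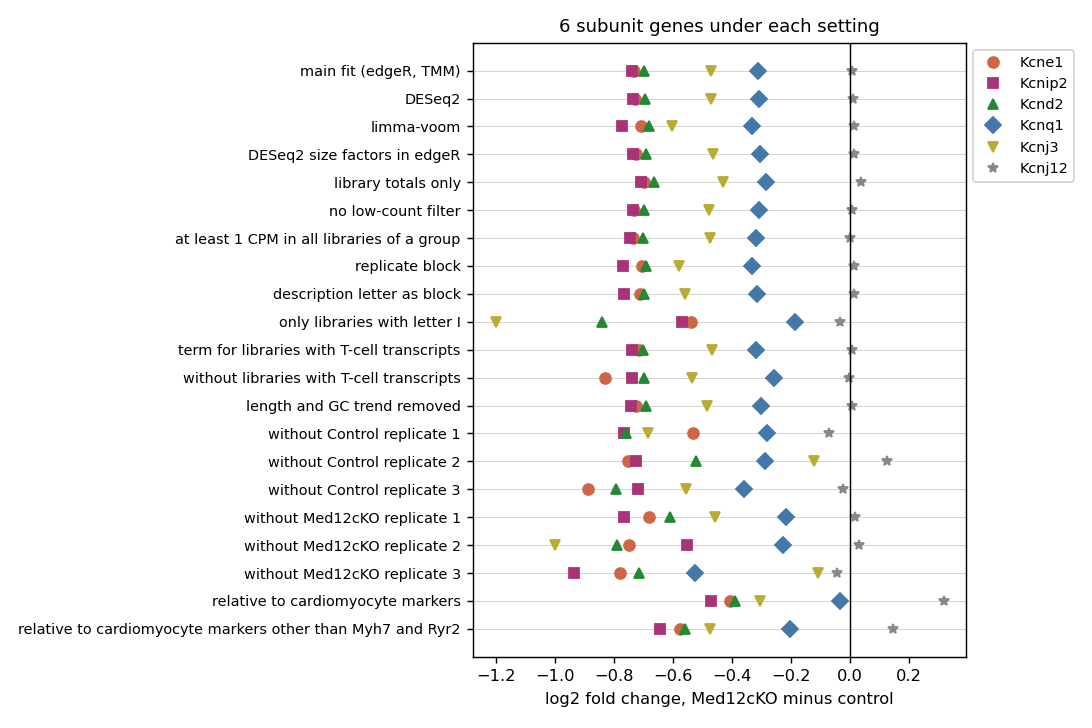
Log2 fold change, Med12cKO minus control (horizontal axis), of 6 subunit genes under edgeR with TMM scaling (top row) and each alternative setting (rows); each symbol is a gene and the vertical line marks 0. Kcne1, Kcnip2, Kcnd2, Kcnq1 and Kcnj3 stay below 0 in every row, and Kcnj12 lies on both sides of 0.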

How the data were processed

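The deposited values are read counts, not normalized, with a row per gene symbol and 6 columns matched to samples by their descriptions. TopHat2 2.0.0, featureCounts, edgeR 3.14.0 and the build GRCm38 (mm10) are named in the submitters' processing notes without roles; the sources used here do not give the annotation, strand setting or read length. Groups and replicate numbers came from the sample titles. Library totals ran from 8453346 to 10911698 counts, and a count of 3 stood for 0.285 to 0.345 CPM.

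Counts were scaled by TMM, filtered with filterByExpr (minimum count 10, minimum total 15) and tested over all 13629 genes with edgeR 4.0.16's robust quasi-likelihood test in R 4.3.3, with Benjamini-Hochberg adjustment at 0.05. The SE is the log2 fold change over the square root of F, and 95% intervals use the moderated degrees of freedom. Ratios and levels relative to cardiomyocyte markers were compared by two-sided exact permutation over the 20 arrangements of the libraries (on log2 values, without a pseudocount). Alternatives were DESeq2 1.42.0, limma-voom (limma 3.58.1), other scalings and filters, blocks, subsets, a length and GC offset, and each library left out. Levels relative to cardiomyocyte markers, with and without Myh7 and Ryr2, were added after seeing the data. Lengths, positions and GC came from GENCODE M21 (GRCm38), which matched 95.4% of tested genes. No libraries of a group agreed within counting error (chi-square over its degrees of freedom 14.5 to 29.3). The test scripts were tested on simulated data. All 10 members, the partner genes, and listed genes with an unadjusted p under 0.05 were named, apart from items not reported here. The members and lists were chosen with earlier results of these data known.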

Additional observations from a re-analysis of the deposited data

How the results depend on the processing

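The number of genes called over all genes, 3, became 61 with DESeq2 and 1 with the 4 libraries of description letter I alone, and ranged from 1 to 3 with a library left out (1 without Med12cKO replicate 3). The number of the 10 subunit genes called, 0, became 2 with DESeq2 (Kcne1 and Kcnip2) and was 0 in each of the other 17 alternatives. Their median log2 fold change ranged from −0.38 to −0.13 with a library left out, the latter without control replicate 2. Kcne1 and Kcnip2 had an unadjusted p under 0.05 under all 18 alternatives of the fit and Kcnd2 under 15. These 3 genes already had such a p in the main fit, and the alternatives reuse the same libraries, so this is not separate support. The share of all genes that keep such a p was not tested. Kcnj12 turned negative with letter I alone (−0.0338), without the libraries with T-cell transcripts (−0.0019) and with single libraries left out (from −0.0696 to 0.126). Relative to cardiomyocyte markers Kcnh2 (0.21), Kcna5 (0.19) and Kcnj2 (0.0909) turned positive, and with Myh7 and Ryr2 left out of those markers Kcnh2 (0.0374) and Kcna5 (0.0218). The Kcnj12 to Kcnj2 ratio difference was 0.39 without the libraries with T-cell transcripts and 0.17 to 0.34 with a library left out. With a library left out the Kcne1 to Kcnq1 ratio difference ranged from −0.50 to −0.22 and that of Kcnd3 to Kcnd2 from 0.245 to 0.49. The Kcnip2 to Kv4 ratio difference was 0.17 with letter I alone and ranged from −0.39 to 0.10 with a library left out. The cause was not tested.

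Same-numbered libraries had correlations of −0.31, 0.44 and −0.35 in their deviations from the group means. The highest correlation, 0.71, was between control replicate 3 and Med12cKO replicate 1, the libraries with T-cell transcripts. Deviations within a group sum to 0, so these values cannot decide whether the replicate numbers mark pairs. With the replicate block 2 genes were called and 0 of the 10 subunit genes, and no subunit gene changed its call. At 32 to 88 counts per library for Kcnd2, counting error adds to the spread between libraries.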
